A study of Mus musculus with 12 samples.

Results

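The genes described here encode 10 enzymes that write methyl groups onto 3 lysines of histone H3, named H3K4, H3K36 and H3K79 after their positions. Kmt2a, Kmt2b, Kmt2c, Kmt2d, Setd1a and Setd1b act on H3K4, Setd2, Nsd1 and Nsd2 on H3K36, and Dot1l on H3K79. They were chosen by name, by matching Ensembl gene identifiers to mouse symbols, and all 10 were found among the 12591 genes of the deposited table. The RNA came from PER2::LUC mouse embryonic fibroblasts (MEFs), cells prepared from mice heterozygous for a knock-in that joins luciferase to the circadian protein PER2, grown to confluence and then treated for 24 h. There were 3 dishes in each of 4 groups: control (CTL), 10 μM DZ, 1 mM adenine and 1 mM S-adenosylmethionine (SAM). All 4 groups, CTL included, received 3.3 mM HCl. DZ (deazaneplanocin A) is an inhibitor of AHCY, the enzyme that hydrolyses S-adenosylhomocysteine (SAH). The groups share 1 genotype and differ in treatment. The replicates were dishes, which no label ties to separate animals, so p-values measure only the spread between dishes, which may be technical.

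Histone lysine methyltransferases take their methyl group from SAM and release SAH, a product that inhibits many of them until AHCY removes it. Methylated H3K4 marks promoters and enhancers, methylated H3K36 marks the bodies of transcribed genes, and H3K79 methylation is found over the transcribed start of active genes. The KMT2 and SETD1 enzymes work in COMPASS complexes, which share a core of WDR5, RBBP5, ASH2L and DPY30, whereas SETD2 travels with elongating RNA polymerase II and DOT1L binds proteins of the MLLT family. The comparison with CTL asks whether the mRNA of these SAM-consuming enzymes differed when the methyl cycle was disturbed. Protein levels and histone marks were not analysed here.

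Of the 10 enzymes, 9 carry a SET domain, whose catalytic pocket holds a short signature of asparagine, histidine, serine or cysteine, cysteine, any residue, proline and asparagine. The coding strand for this signature was searched for, in frame, in the reference coding sequence of each gene in GENCODE vM39 (GRCm39). It was found once in each of these 9 genes and not in Dot1l, whose enzyme is built on a different fold, and in 19 of 10948 coding sequences in all (0.174%). The sequences are shown because they are the site that these 9 enzymes have in common and Dot1l lacks. Each is written 5′ to 3′ on the coding strand, and the 21 bases of the signature are in capitals.
Kmt2a: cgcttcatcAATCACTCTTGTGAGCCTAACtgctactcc
Kmt2b: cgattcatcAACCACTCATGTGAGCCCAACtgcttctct
Kmt2c: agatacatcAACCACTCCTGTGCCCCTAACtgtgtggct
Kmt2d: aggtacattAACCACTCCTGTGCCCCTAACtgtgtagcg
Setd1a: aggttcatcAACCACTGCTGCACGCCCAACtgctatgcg
Setd1b: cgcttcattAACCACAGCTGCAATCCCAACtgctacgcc
Setd2: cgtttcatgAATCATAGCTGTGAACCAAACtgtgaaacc
Nsd1: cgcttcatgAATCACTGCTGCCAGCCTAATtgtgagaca
Nsd2: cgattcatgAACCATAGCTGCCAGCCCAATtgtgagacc
Kmt2c and Kmt2d had all 21 bases of the signature in common. Kmt2a and Kmt2b shared 18 of the 21, Setd1a and Setd1b 18, and Nsd1 and Nsd2 17. Pairs across these subfamilies shared between 12 and 17, the 17 being Setd1b with Nsd2 and each of Kmt2a and Kmt2b with each of Kmt2c and Kmt2d. The signature lay in the last exon of Kmt2a (exon 36, chr9:44719373-44719393) and Kmt2b (exon 37, chr7:30268760-30268780), and in the exon before the last in Kmt2c (exon 58 of 59, chr5:25480707-25480727) and Kmt2d (exon 54 of 55, chr15:98732678-98732698), all 4 on the minus strand. It was split over the last 2 exons in Setd1a (exons 18 and 19, chr7:127398386-127398483) and Setd1b (exons 16 and 17, chr5:123301757-123303901). It lay in exon 7 of 21 in Setd2 (chr9:110392047-110392067) and in exon 20 of 23 in both Nsd1 (chr13:55450700-55450720) and Nsd2 (chr5:34048898-34048918), these 5 genes being on the plus strand. Dot1l spans chr10:80590996-80631313 on the plus strand, with 28 exons.

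The values are log2 CPM, the log2 of the read number after division by the normalized library size, as deposited by the authors. The 12 libraries held between 45649534 and 56789090 reads on the listed genes, and a gene of the set had between 2145 and 17289 reads in a library (recovered from the deposited values). Each gene was tested with limma in 1 model of all 12 libraries, with Benjamini-Hochberg adjustment over all 12591 genes, and a call required an FDR under 0.01. The fibroblast identity of the cells was checked on 8 marker genes, all of which were in the table, with a summed level between 15862 CPM (SAM) and 28259 CPM (DZ). Of 6 leukocyte markers only Cd68, which is also a lysosomal protein of other cells, was among the genes analysed. It had 3.03 to 4.0 CPM in CTL, 2.73 to 3.78 CPM in DZ, 10.8 to 12.3 CPM in adenine and 15.6 to 17.7 CPM in SAM. No marker of the epithelial, endothelial and muscle lists was among the genes analysed.

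One library stood apart for these genes. All 10 were lowest among the SAM dishes in SAM replicate 3, where they lay between -0.42 and -0.099 log2 units from the mean of the other 2 SAM libraries (median -0.27). In no other library did all 10 lie below the other replicates, but 9 did in CTL replicate 3 (median -0.079) and in adenine replicate 1 (median -0.055). The medians over the 10 genes in the CTL, DZ and adenine libraries were between -0.079 and 0.051. In SAM replicate 3 the deviation followed transcript length across all 10948 protein-coding genes of the table. Its median fell from 0.12 in 424 genes with transcripts of up to 1000 bases, through -0.044 in 2693 genes of 4000 to 6000 bases, to -0.28 in 130 genes above 12000 bases. Smaller trends of this direction ran from 0.046 to -0.067 in CTL replicate 3 and from 0.037 to -0.056 in adenine replicate 1. Opposite ones ran from -0.052 to 0.060 in CTL replicate 2 and from -0.025 to 0.049 in adenine replicate 2. In SAM they ran from -0.060 to 0.17 in replicate 1 and from -0.063 to 0.11 in replicate 2. Each library is set against the other 2 of its group, so opposite trends within a group are not separate observations. The transcripts of the 10 methyltransferases are among the long ones, from 6487 bases (Setd1a) to 19826 bases (Kmt2d), against a median of 3549.5 bases, and only 14.5% of protein-coding genes have a transcript at least as long as that of Setd1a. SAM replicate 3 also entered the spread that all comparisons share. The median standard error of the 10 genes was 0.059 log2 units with it (0.055 over all genes) and 0.035 without it (0.050 over all genes) in comparisons of DZ or adenine with CTL. Each result is therefore given with all libraries and, where a call differs, without SAM replicate 3.

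**Figure D1:**
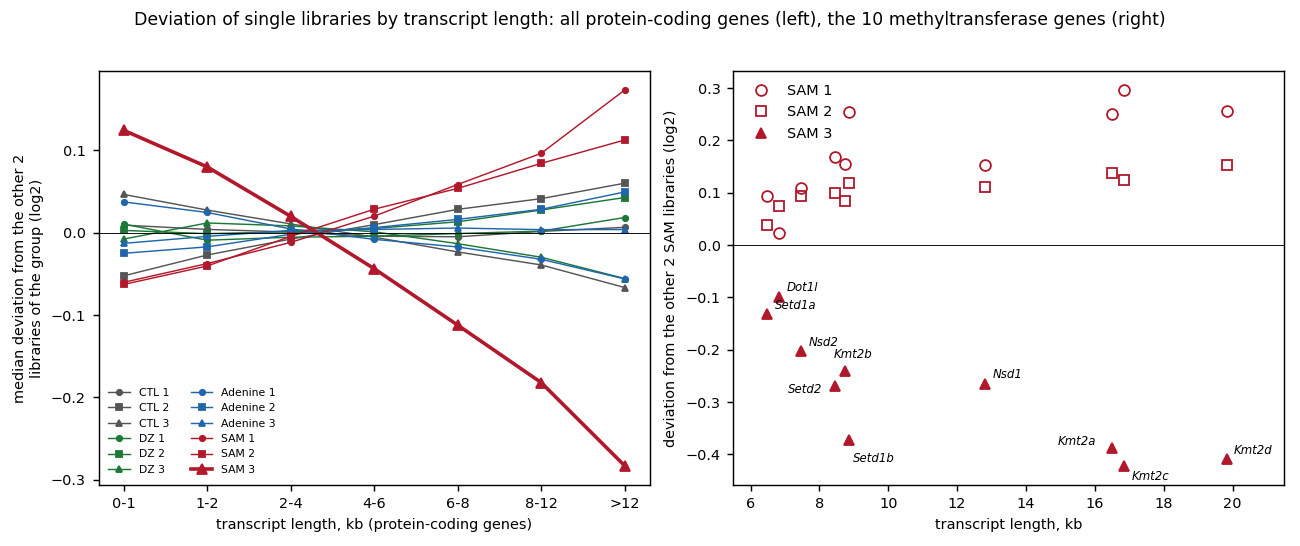
Median deviation of each library from the other 2 of its group (log2 units, y axis) in bins of transcript length (kb, x axis) for protein-coding genes (left), and the same deviation of each of the 10 methyltransferase genes in the 3 SAM libraries against transcript length (right). The line of SAM replicate 3 runs from 0.12 to -0.28, and all 10 genes lie below 0 in that library and above 0 in the other SAM libraries.

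In the CTL dishes, transcript levels per kilobase of transcript spanned a narrow range at the top and a wide one at the bottom. On the scale of log2 CPM per kilobase, Nsd2 (3.97 ± 0.0051, SD, n = 3), Setd2 (3.96 ± 0.047) and Kmt2d (3.93 ± 0.053) were the highest, and neighbours in this order differed by less than the larger of their SDs. Dot1l (3.83 ± 0.070), Setd1a (3.62 ± 0.046), Kmt2b (3.45 ± 0.060), Kmt2a (3.40 ± 0.073) and Nsd1 (3.24 ± 0.041) followed, and of these Kmt2b and Kmt2a also lay within their spread. Setd1b (2.87 ± 0.063) and Kmt2c (2.33 ± 0.066) were the lowest. The order was different under SAM, where Dot1l (4.37 ± 0.059) and Nsd2 (4.35 ± 0.12) were the highest, within the larger of their SDs. Kmt2d stood at 3.70 ± 0.24 under SAM, and these SAM values include replicate 3. In DZ the order differed from CTL as well, with Setd2 (4.10 ± 0.028) and Dot1l (4.09 ± 0.073) the highest, also within the larger SD. Kmt2c remained the lowest of the set in DZ (2.14 ± 0.088), adenine (2.00 ± 0.051) and SAM (1.63 ± 0.25).

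With all libraries, the called changes under SAM were a fall of Kmt2c and rises of Dot1l, Setd1a and Nsd2. Under adenine they were falls of Kmt2d, Kmt2c and Nsd1 and rises of Nsd2 and Dot1l, and under DZ a rise of Dot1l. The genes that rose under SAM have the 3 shortest transcripts of the set (Setd1a 6487, Dot1l 6835 and Nsd2 7465 bases). That of Kmt2c has 16845 bases. These calls were kept with the trend over transcript length removed from each library. Dot1l was called in all 3 comparisons with CTL, and Kmt2a, Kmt2b, Setd1b and Setd2 in none of them. Without SAM replicate 3, Setd2 (higher in each) and Kmt2c (lower in each) were also called in all 3. In counts, 1 of the 10 genes was called under DZ (higher), 5 under adenine (2 higher, 3 lower) and 4 under SAM (3 higher, 1 lower). Over all genes, 45.9% were called under DZ, split into 22.6% higher and 23.4% lower. For adenine the share was 61.6% (higher 30.6%, lower 31.0%) and for SAM 69.3% (higher 33.7%, lower 35.7%). The counts of the set were below these shares, under adenine by little, but in a set of 10 genes such differences were not tested. Without SAM replicate 3, 4 of the 10 were called under DZ, 8 under adenine and 5 under SAM, beside 49.9%, 64.1% and 68.4% of all genes. The adenine count was then above the share of all genes, a difference that was not tested either. Without SAM replicate 1, 8 of the 10 were called under SAM, beside 66.0% of all genes. Without adenine replicate 1, CTL replicate 1 or CTL replicate 2, 3 were called under adenine, beside 57.0%, 57.4% and 57.8% of all genes. The counts of the set under DZ and adenine therefore differed with the libraries in the fit, and SAM replicate 3 entered them only through the shared spread, since the fold changes themselves do not use it. The median size of change, regardless of direction, was 0.087 log2 units in the set against 0.18 in all genes under DZ, 0.22 against 0.27 under adenine and 0.21 against 0.34 under SAM. The signed medians were -0.059, -0.065 and -0.13 in the set and -0.0057, -0.0030 and -0.015 in all genes. For SAM, leaving out replicate 3 gave a signed median of -0.030 in the set and -0.0087 in all genes. The median size under SAM was then 0.14 log2 units in the set against 0.34 in all genes. In bulk RNA, fewer cells expressing a gene and less RNA of it per cell cannot be told apart.

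**Figure D2:**
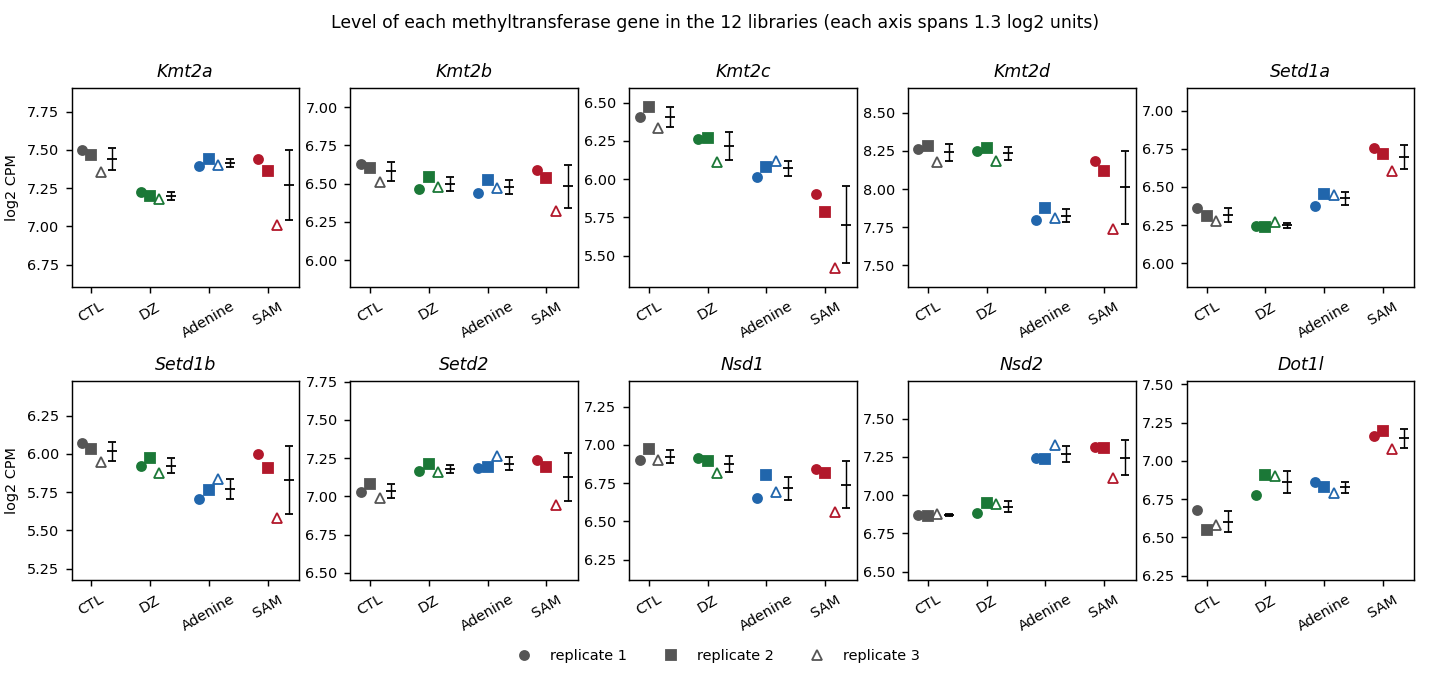
Level of each gene (log2 CPM, y axis, every panel spanning the same 1.3 log2 units) in the 3 libraries of CTL, DZ, adenine and SAM, with the group mean and SD in black. SAM replicate 3 (open triangle) is the lowest SAM library in every panel. All 3 SAM libraries lie below CTL for Kmt2c and above CTL for Setd1a, Nsd2 and Dot1l.

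**Figure D3:**
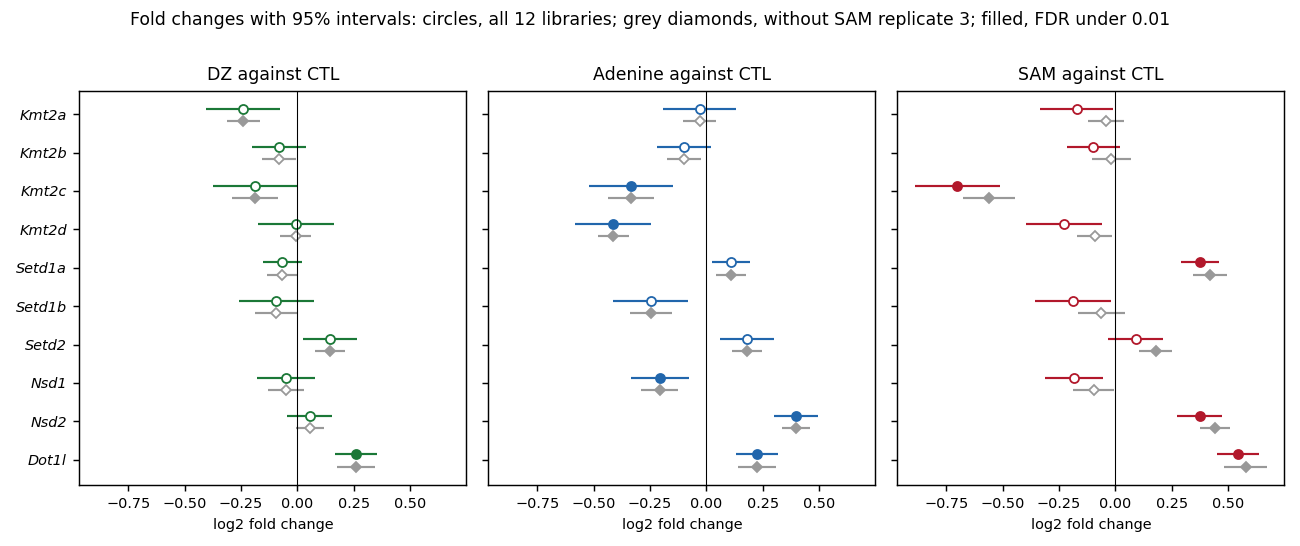
Log2 fold change against CTL (x axis) of each gene with its 95% confidence interval, for DZ, adenine and SAM, fitted with all 12 libraries (circles) or without SAM replicate 3 (grey diamonds). Filled symbols passed an FDR of 0.01, and the intervals of the 10 genes are narrower without that library except for Dot1l, where they are nearly the same.

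Kmt2a encodes MLL1, which methylates H3K4 at promoters with a CpG island, those of Hox genes among them. Its log2 CPM was 7.50, 7.47 and 7.36 in CTL, 7.23, 7.20 and 7.18 in DZ, 7.39, 7.44 and 7.40 in adenine, and 7.44, 7.36 and 7.01 in SAM. The 3 DZ libraries lay below all CTL and all adenine libraries, and the adenine libraries lay within the range of CTL. The log2 fold change under DZ was -0.24 (SE 0.076) with a limma adjusted p of 0.0137, just outside the threshold, and with an adjusted p of 2.14e-05 without SAM replicate 3. It was -0.029 (SE 0.076, adjusted p = 0.747) under adenine. The value under SAM was -0.17 (adjusted p = 0.0524), and it was -0.042 (adjusted p = 0.329) without SAM replicate 3 and -0.26 (adjusted p = 0.00494) without SAM replicate 1. With the trend over transcript length removed, the SAM value was 0.045.

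Kmt2b, the closest relative of Kmt2a, encodes the enzyme known for H3K4 trimethylation at bivalent promoters. It stood at 6.63, 6.60 and 6.51 log2 CPM in CTL, 6.47, 6.55 and 6.48 in DZ, 6.44, 6.53 and 6.47 in adenine, and 6.59, 6.54 and 6.32 in SAM. The groups overlapped. No comparison with CTL passed, with log2 fold changes of -0.082 for DZ (95% interval -0.20 to 0.037), -0.10 for adenine (-0.22 to 0.019) and -0.097 for SAM (-0.22 to 0.022). The sign of the SAM value turned when plain read totals were used for scaling (0.025). With the trend over transcript length removed, the adenine value was -0.14 and passed (adjusted p = 0.00118).

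Kmt2c and Kmt2d, whose SET signatures above are identical, encode MLL3 and MLL4, the enzymes of H3K4 monomethylation at enhancers. Kmt2c was at 6.41, 6.47 and 6.34 log2 CPM in CTL, 6.27, 6.27 and 6.11 in DZ, 6.02, 6.08 and 6.12 in adenine, and 5.90, 5.79 and 5.42 in SAM. Every DZ, adenine and SAM library lay below every CTL library, and every SAM library below every adenine library. Kmt2c fell by 0.70 on the log2 scale under SAM (SE 0.088, limma adjusted p = 2.67e-06), to 0.615 times the CTL level. Without SAM replicate 3 the fold change was -0.56 (adjusted p = 1.28e-07). Under adenine it fell by 0.33 (adjusted p = 0.00322), a call lost without adenine replicate 1 (adjusted p = 0.0157), CTL replicate 1 (0.0105) or CTL replicate 2 (0.0161). It was also lost without the variance trend (adjusted p = 0.0127), with robust empirical Bayes (0.0176) and with plain read totals (0.0108). Under DZ the value was -0.19 (adjusted p = 0.0802), which passed without SAM replicate 3 (adjusted p = 0.00339).

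Kmt2d has the longest transcript of the set. Its values were 8.26, 8.28 and 8.18 in CTL, 8.25, 8.27 and 8.19 in DZ, 7.79, 7.88 and 7.81 in adenine, and 8.18, 8.12 and 7.74 in SAM. DZ and CTL overlapped completely, with a log2 fold change of -0.0071 (95% interval -0.18 to 0.16), while all adenine libraries lay below all CTL and DZ libraries. Kmt2d fell by 0.41 under adenine (SE 0.079, adjusted p = 2.36e-04), to 0.751 times CTL. The SAM value of -0.23 (adjusted p = 0.0162) rested on replicate 3, which was lower than the adenine libraries, and it was -0.091 (adjusted p = 0.0337) without it. It passed without SAM replicate 1 (-0.31, adjusted p = 0.00157) and without SAM replicate 2 (-0.28, adjusted p = 0.0091). With the trend over transcript length removed, the SAM value was 0.033.

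Setd1a and Setd1b encode the catalytic subunits of the SET1 complexes, to which most of the H3K4 trimethylation at active promoters is credited. Setd1a had 6.37, 6.31 and 6.28 log2 CPM in CTL, 6.24, 6.24 and 6.27 in DZ, 6.38, 6.45 and 6.45 in adenine, and 6.76, 6.72 and 6.61 in SAM. The SAM libraries, replicate 3 included, were above those of every other group. Setd1a rose by 0.38 under SAM (SE 0.040, adjusted p = 4.04e-07). Its adenine value was 0.11 (adjusted p = 0.0244, and 0.00601 without SAM replicate 3) and its DZ value -0.067 (adjusted p = 0.163). Setd1a shares 14515 bases with Gm49388, a protein-coding gene on the same strand that was not among the genes analysed. A share of Gm49388 reads in the Setd1a value was not tested.

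Setd1b had 6.07, 6.03 and 5.95 log2 CPM in CTL, 5.92, 5.97 and 5.88 in DZ, 5.71, 5.76 and 5.84 in adenine, and 5.999, 5.91 and 5.58 in SAM. All adenine libraries lay below all CTL libraries, and the other groups overlapped with CTL. The adenine value of -0.25 (SE 0.078) missed the threshold at an adjusted p of 0.0109, and its adjusted p was 1.07e-04 without SAM replicate 3. The SAM value went from -0.19 (adjusted p = 0.0404) with that library to -0.063 (adjusted p = 0.248) without it, and to -0.27 (adjusted p = 0.00415) without SAM replicate 1. Setd1b overlaps the antisense gene AI480526 over 1284 bases, and AI480526 fell in all 3 treatments, with log2 fold changes of -0.80 (DZ), -1.44 (adenine) and -1.42 (SAM). The library kit keeps the strand, but the strand setting of the counting is not given in the sources used here, so a share of antisense reads in the Setd1b value was not tested.

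Setd2 encodes the enzyme that trimethylates H3K36 behind the elongating polymerase. It had 7.03, 7.08 and 6.99 log2 CPM in CTL, 7.16, 7.21 and 7.16 in DZ, 7.18, 7.19 and 7.26 in adenine, and 7.24, 7.19 and 6.95 in SAM. All DZ and adenine libraries were above all CTL libraries, as were SAM replicates 1 and 2, while SAM replicate 3 was below them. With all libraries none of the values passed, at 0.14 for DZ (adjusted p = 0.0396), 0.18 for adenine (adjusted p = 0.0106) and 0.090 for SAM (adjusted p = 0.159). Without SAM replicate 3 all 3 passed, with 0.18 for SAM (adjusted p = 1.97e-04) and adjusted p-values of 7.99e-04 for DZ and 7.63e-05 for adenine. No other gene of the set had calls against CTL in all 3 treatments that depended on that library.

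Nsd1 and Nsd2 encode the enzymes of H3K36 mono- and dimethylation, and they moved in opposite directions under adenine. Nsd1 was at 6.90, 6.97 and 6.90 log2 CPM in CTL, 6.91, 6.90 and 6.81 in DZ, 6.65, 6.80 and 6.69 in adenine, and 6.84, 6.82 and 6.56 in SAM. All adenine and all SAM libraries lay below the CTL libraries. Nsd1 fell by 0.21 under adenine (SE 0.060, adjusted p = 0.00645). This call was lost without adenine replicate 1 or 3 or any 1 of the CTL replicates (adjusted p from 0.0124 to 0.0336), without the variance trend, with quantile normalization and with plain read totals. The SAM value was -0.18 (adjusted p = 0.0121), and -0.095 (adjusted p = 0.0531) without replicate 3, and it passed without replicate 1 (-0.23, adjusted p = 0.00337) and without replicate 2 (-0.22, adjusted p = 0.00774). Nsd1 shares 7 bases with the antisense gene Rab24, which was called in no comparison with CTL.

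Nsd2 was the steadiest gene of the set in CTL, with 6.87, 6.87 and 6.88 log2 CPM. It had 6.88, 6.95 and 6.95 in DZ, 7.24, 7.24 and 7.33 in adenine, and 7.32, 7.31 and 7.11 in SAM. Every adenine and SAM library was above every CTL and DZ library. Nsd2 rose by 0.40 under adenine (SE 0.046, adjusted p = 1.56e-06), or 1.32-fold, and its rise under SAM was 0.37 (SE 0.046, adjusted p = 2.34e-06). Its DZ value was 0.055 (95% interval -0.044 to 0.15). Nsd2 overlaps Nelfa, an antisense gene of a transcription elongation factor subunit, over 3398 bases, and Nelfa rose by 0.30 under SAM and had 0.15 (adjusted p = 0.0227) under adenine. As for Setd1b, a share of antisense reads in the Nsd2 value was not tested.

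Dot1l encodes the H3K79 methyltransferase. It had 6.68, 6.55 and 6.58 log2 CPM in CTL, 6.78, 6.91 and 6.90 in DZ, 6.86, 6.83 and 6.79 in adenine, and 7.16, 7.20 and 7.08 in SAM. Each treated library was above each CTL library, and the SAM libraries were above all others. Dot1l rose by 0.26 under DZ (SE 0.044, adjusted p = 1.44e-04), by 0.22 or 1.17-fold under adenine (adjusted p = 3.09e-04), and by 0.54 or 1.46-fold under SAM (adjusted p = 1.63e-08). It was the gene that SAM replicate 3 moved least. Dot1l overlaps the antisense gene Plekhj1 over 5603 bases, and Plekhj1 rose by 0.25 under DZ, fell by 0.19 under adenine and had -0.15 (adjusted p = 0.0111) under SAM. A share of antisense reads in the Dot1l value was not tested either.

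SAM and adenine were given at the same concentration and can be compared directly. Kmt2c was lower under SAM than under adenine by a log2 difference of -0.37 (adjusted p = 0.0025), Setd1a was higher by 0.27 (adjusted p = 4.86e-05), and Dot1l was higher by 0.32 (adjusted p = 2.27e-05). These 3 of 10 genes compare with 42.7% of all genes. The Kmt2c difference was -0.23 (adjusted p = 0.00245) without SAM replicate 3, and its call was lost without adenine replicate 3 (adjusted p = 0.0125), without the variance trend (0.0111) and with robust empirical Bayes (0.0149). Without SAM replicate 3, 5 of 10 were called beside 39.4% of all genes, Kmt2d (0.32, adjusted p = 3.41e-06) and Setd1b (0.18, adjusted p = 0.00534) being added with higher levels under SAM. Nsd2 differed by -0.023, with a 95% interval from -0.12 to 0.076, and Kmt2b by 0.0028, with an interval from -0.12 to 0.12.

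DZ was given at a concentration 2 orders of magnitude lower than the other compounds, so its differences from them are those of the doses used. Against adenine, DZ dishes had more Kmt2d (0.41, adjusted p = 2.63e-04) and less Setd1a (-0.18, adjusted p = 0.00101) and Nsd2 (-0.34, adjusted p = 7.73e-06), and Dot1l differed by 0.034 with a 95% interval from -0.060 to 0.13. These 3 of 10 genes stand beside 64.3% of all genes. Against SAM, they had more Kmt2c (0.51, adjusted p = 7.12e-05) and less Setd1a (-0.44, adjusted p = 6.01e-08), Nsd2 (-0.32, adjusted p = 1.32e-05) and Dot1l (-0.29, adjusted p = 2.54e-05), 4 of 10 beside 69.0% of all genes. Kmt2d, at 0.22 (adjusted p = 0.0194) against SAM, passed without SAM replicate 1 (0.31, adjusted p = 0.00187) and was 0.084 (adjusted p = 0.0482) without SAM replicate 3. Without SAM replicate 3 the counts were 6 of 10 against adenine (67.2% of all genes) and 5 of 10 against SAM (68.3% of all genes). The calls added against adenine were those of Kmt2a, Setd1b (0.15, adjusted p = 0.00484) and Nsd1 (0.16, adjusted p = 0.00156), the last 2 higher in DZ. Kmt2a, lower in DZ, was added to both comparisons, by -0.21 against adenine (adjusted p = 4.20e-05) and by -0.20 against SAM (adjusted p = 2.07e-04).

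The shared core of the COMPASS complexes changed unevenly. Of its 4 genes, 1 rose under DZ, and 1 rose and 3 fell under both adenine and SAM. Over all genes, 45.9% were called under DZ, 61.6% under adenine and 69.3% under SAM, beside which all list counts below also stand. Dpy30, the dimeric subunit that anchors the core, rose by 0.33 under DZ (adjusted p = 2.95e-04), 0.33 under adenine and 0.58 under SAM. Rbbp5, which contacts the SET domain together with ASH2L, fell by 0.24 under adenine and fell by 0.65 under SAM (adjusted p = 1.16e-09). Wdr5, the scaffold WD40 protein, fell under adenine and SAM (-0.27 and -0.25), and so did Ash2l (-0.20 and -0.12). The adenine and SAM comparisons use the same CTL libraries.

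Of 10 subunits that belong to some COMPASS complexes but not to the shared core, 9 were among the genes analysed. Under DZ 1 rose and 2 fell, under adenine 5 rose and none fell, and under SAM 6 rose and none fell, with median log2 fold changes of -0.036, 0.18 and 0.17. Over all genes, 22.6% rose and 23.4% fell under DZ, 30.6% and 31.0% under adenine, and 33.7% and 35.7% under SAM. Men1, whose product menin tethers the KMT2A and KMT2B complexes, rose by 0.24 in adenine (adjusted p = 1.45e-04) and by 0.64 in SAM (adjusted p = 2.16e-09) and had -0.052 under DZ (adjusted p = 0.33). Psip1, which encodes the menin partner LEDGF, rose by 0.56 in adenine (adjusted p = 1.76e-10) and by 0.55 in SAM (adjusted p = 1.68e-10). Paxip1, of the KMT2C and KMT2D complexes, fell by 0.32 under DZ (adjusted p = 7.27e-06) and rose by 0.17 under SAM (adjusted p = 0.00148).

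Among the partners of the H3K36 and H3K79 enzymes, 1 of 4 MLLT genes of DOT1L complexes fell under DZ, and 1 rose and 1 fell under each of adenine and SAM. The shares of all genes called were 45.9% (DZ), 61.6% (adenine) and 69.3% (SAM). Mllt3 (AF9) fell by 0.14 under DZ and rose by 0.25 under adenine and 0.18 under SAM. Mllt6 fell by 0.23 under adenine, Mllt10 (AF10) fell by 0.27 under SAM, and Mllt1 (ENL) was called in none of the 3 comparisons (-0.085, 0.035 and -0.023). Polr2a, the large subunit of RNA polymerase II whose tail SETD2 binds, fell by 0.57 under DZ (adjusted p = 8.99e-09) and rose in the other comparisons with CTL, by 0.14 (adenine, adjusted p = 0.00337) and 0.39 (SAM, adjusted p = 1.28e-07). Supt6, an elongation factor, fell by 0.13 under adenine and by 0.14 under SAM, and Iws1 was called in none.

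A further list held 10 other genes of SET-domain proteins grouped with the H3K4 and H3K36 enzymes, Kmt2e among them. Of these, 3 rose and 2 fell under DZ, 2 rose and 2 fell under adenine, and 2 rose and 4 fell under SAM. The shares of all genes called were again 45.9% (DZ), 61.6% (adenine) and 69.3% (SAM). Kmt2e, a relative of the KMT2 genes without known activity on H3K4, fell by 0.41 under DZ (adjusted p = 1.86e-07) and also fell under adenine (-0.20) and SAM (-0.17). Smyd3 fell by 0.57 under adenine and fell by 0.89 under SAM (adjusted p = 3.84e-07). Smyd2 rose by 0.21 under DZ and fell by 0.28 under SAM.

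The demethylases remove the same marks, and their counts stand beside the shares of all genes given above (45.9% under DZ, 61.6% under adenine and 69.3% under SAM). Of 7 H3K4 demethylases, 2 rose and none fell under DZ, none rose and 2 fell under adenine, and none rose and 3 fell under SAM. Kdm5b fell by 0.46 under adenine and fell by 0.79 under SAM (adjusted p = 2.45e-10), Kdm1b rose by 0.38 under DZ and fell by 0.35 under SAM, and Kdm5c rose by 0.30 under DZ. Of 6 H3K36 demethylases, none was called under DZ by limma or by voom on the recovered reads, 4 having an unadjusted p under 0.05, while 2 rose and 2 fell under adenine, and 1 rose and 2 fell under SAM. Kdm4a fell by 0.25 under adenine and fell by 0.77 under SAM (adjusted p = 1.09e-10). Kdm4c fell in the same comparisons (-0.41 and -0.65), whereas Kdm2b rose (0.17 and 0.30).

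Proteins that read the marks were the last group. Their counts stand beside 45.9% (DZ), 61.6% (adenine) and 69.3% (SAM) of all genes. Of 10 H3K4me3 readers, 2 rose under DZ, 3 rose and 1 fell under adenine, and 2 rose and 1 fell under SAM. Spin1 rose by 0.38, 0.46 and 0.43 under DZ, adenine and SAM, Ing1 rose by 0.29 and 0.47 under adenine and SAM, and Phf8, which is also a demethylase, fell (-0.22 and -0.33). Of 6 H3K36 methylation readers, 1 rose and 1 fell under DZ, 1 rose and 2 fell under adenine, and 3 rose and 2 fell under SAM. Msh6, the mismatch repair protein with a PWWP domain, rose by 0.52 under adenine and 1.01 under SAM (adjusted p = 6.17e-13). Zmynd11 fell under the 3 treatments (-0.20, -0.22 and -0.38), and Pwwp2a fell under adenine (-0.48) and SAM (-0.47).

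**Figure D4:**
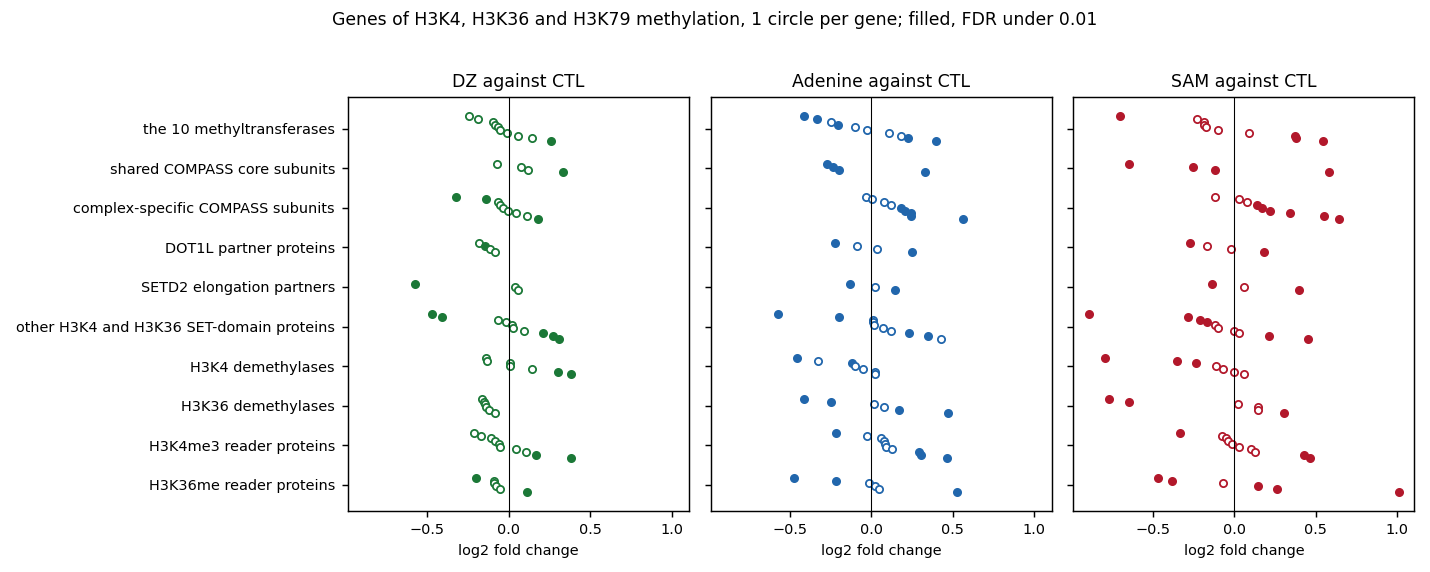
Log2 fold change against CTL (x axis) of the 10 methyltransferase genes and of each gene in 9 related lists, 1 circle per gene, for DZ, adenine and SAM. Filled circles passed an FDR of 0.01, and the largest values are those of Msh6 (1.01) and Smyd3 (-0.89) under SAM.

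Genes of S phase and mitosis moved with the adenine and SAM groups. Their summed level over 12 genes was 974 to 1011 CPM in CTL, 1032 to 1150 CPM in DZ, 2142 to 2221 CPM in adenine and 2529 to 2608 CPM in SAM. Under adenine and SAM 11 rose and 1 fell, with median log2 fold changes of 1.40 and 1.66, and under DZ 8 rose and 1 fell, with a median of 0.23. Aurkb, a mitotic kinase, rose by 1.89 in adenine and by 2.71 in SAM, and Mcm4 and Mcm5, of the replicative helicase, rose by 1.36 and 1.66 under adenine and by 1.76 and 2.12 under SAM. Cd68 rose by 1.73 and 2.28 in the same comparisons. Among fibroblast markers, Pdgfra rose by 0.46, 1.89 and 2.55 under DZ, adenine and SAM, Col3a1 rose by 0.24, 1.99 and 1.31, and Fn1 rose by 0.33 under DZ and fell under adenine (-0.43) and SAM (-1.58). The part of these changes in the values of Nsd2, Setd1a, Dot1l and the other genes of the set was not tested.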

How the data were processed

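Polyadenylated RNA of 12 dishes was sequenced with a strand-specific kit. Per the labels and the study's methods, the authors used Trimmomatic, HISAT2 (GRCm39, GENCODE vM27), StringTie and edgeR, and they dropped genes under 1 CPM in any sample. The deposited table holds log2 CPM of normalized library sizes for 12591 genes, and all 12 columns were used as they stand. Whole reads were recovered with a prior count of 2 (largest distance from a whole read 0.0020). Because StringTie works from coverage, these reads are estimates.

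The test was that of limma 3.58.1 under R 4.3.3 (lmFit on the 4 groups, contrasts, eBayes with a variance trend, two-sided, Benjamini-Hochberg over all genes, FDR under 0.01), after the scripts had been tested on simulated data. Tables and plots used Python 3.11.15, numpy 2.4.6, pandas 2.3.3 and matplotlib 3.10.9. Symbols, positions and the length of the Ensembl canonical transcript came from GENCODE vM39, which matched 12575 identifiers, whereas the authors used vM27. No label says that the replicate numbers pair the dishes. The 10 genes and all lists were chosen with earlier results of these data known. Named genes are the 10, every gene of a list of up to 4 genes, and otherwise the 3 with the smallest adjusted p in the comparisons with CTL. Overlapping neighbours were also named, the antisense ones after their values were seen.

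The results were recomputed with robust empirical Bayes, no variance trend, a mean log2 CPM of at least 3, median centring, quantile normalization, plain read totals, a pseudocount of 1 CPM, an FDR of 0.05, voom on the recovered reads, a model of the 2 compared groups alone, a replicate block and leaving out each library in turn. The comparisons of DZ and adenine with CTL and with each other without SAM replicate 3, and the removal of a lowess trend over transcript length, were added after seeing the data.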

Additional observations from a re-analysis of the deposited data

How the results depend on the processing

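No called change of the 10 genes turned direction under any alternative, and 352 of 369 recomputed called values also kept the call. A call cannot be lost at the looser FDR threshold. That threshold, no variance trend, robust empirical Bayes and the filter on mean log2 CPM leave each fold change as it is. So do the model of the compared groups alone, the replicate block, and leaving out a SAM library in comparisons without SAM. Directions were therefore tested only by the other alternatives, and the 352 include outcomes that were fixed in advance. The 17 lost calls were those of Kmt2c (adenine against CTL, SAM against adenine) and Nsd1 (adenine against CTL). Voom on the recovered reads called as many of the 10 as reported in each comparison. Plain read totals moved the median log2 value over all genes in SAM against CTL from -0.015 to 0.11. The cause of the other differences was not tested. Each of the 10 genes had at least 2145 reads in a library.

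The number of the 10 called under adenine (5 as reported) was 3 without a variance trend and 8 at an FDR of 0.05, without SAM replicate 3 or with the length trend removed, and leaving out single libraries gave 3 to 8, with 3 without adenine replicate 1, CTL replicate 1 or CTL replicate 2. The share of all genes called was 59.9% without a variance trend, 70.3% at an FDR of 0.05 and 64.6% with the length trend removed. Under DZ (1 as reported) it was 2 with median centring, 3 at an FDR of 0.05, and 4 in the model of the 2 groups alone, without SAM replicate 3 or with the length trend removed, and leaving out single libraries gave 1 to 4. The shares of all genes were 45.7%, 58.3%, 46.4%, 49.9% and 49.3% in that order. Under SAM (4 as reported) it was 7 at an FDR of 0.05 (77.0% of all genes), and leaving out single libraries gave 4 to 8, the 8 without SAM replicate 1. Between SAM and adenine (3 as reported) it was 5 without SAM replicate 3 or with the length trend removed (39.4% and 45.3% of all genes), and 2 to 5 with single libraries left out. Between DZ and adenine (3 as reported) it was 5 at an FDR of 0.05, 6 in the model of the 2 groups alone or without SAM replicate 3, 7 with the length trend removed, and 3 to 6 with single libraries left out, beside 73.4%, 65.9%, 67.2% and 65.9% of all genes in the first 4 settings. Between DZ and SAM leaving out single libraries gave 4 to 5.

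With a replicate block, 2 of the 10 were called under DZ, 7 under adenine and 6 under SAM, beside 45.8%, 61.5% and 69.4% of all genes. Over all genes, the correlations of same-numbered libraries lay between -0.142 and 0.181 over 18 pairs. In genes with transcripts above 12000 bases, replicate 2 deviated upwards in each group (CTL 0.060, DZ 0.042, adenine 0.049, SAM 0.11). Replicate 3 lay at -0.067 in CTL, -0.056 in DZ, 0.0037 in adenine and -0.28 in SAM. Replicate 1 lay at 0.0063 in CTL, 0.018 in DZ, -0.056 in adenine and 0.17 in SAM. Each deviation is taken from the other 2 libraries of the group, so the values within a group are not independent. Whether same-numbered dishes share a batch was not tested.

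The following log2 values, none of them called as reported, changed sign. With median centring, Setd2 in DZ against adenine was 0.0020. With quantile normalization, Kmt2a was 0.018 under adenine, Kmt2d 0.030 under DZ, Nsd2 0.0079 in SAM against adenine, Kmt2b -0.018 and Dot1l -0.0062 in DZ against adenine, and Kmt2b -0.026 in DZ against SAM. With plain read totals, Kmt2a was 0.033 under adenine, Kmt2d 0.018 under DZ, Kmt2b 0.025 under SAM, Nsd2 0.037 in SAM against adenine, Kmt2b -0.018 and Dot1l -0.0020 in DZ against adenine, and Kmt2b -0.081, Setd1b -0.0022 and Setd2 -0.042 in DZ against SAM. With the length trend removed, Kmt2d was 0.046 under DZ, Kmt2a 0.045 and Kmt2d 0.033 under SAM, Kmt2a 0.067, Setd2 0.011 and Nsd2 0.059 in SAM against adenine, Setd2 0.023 in DZ against adenine and Kmt2b -0.032 in DZ against SAM. With single libraries left out, Kmt2d under DZ ranged from -0.037 to 0.017 and Kmt2b in DZ against adenine from -0.0060 to 0.042. In SAM against adenine, Kmt2b ranged from -0.049 to 0.083, Setd1b from -0.025 to 0.18, Nsd1 from -0.028 to 0.11, Setd2 from -0.15 to 0.00046 and Nsd2 from -0.059 to 0.044. In DZ against SAM, Kmt2a ranged from -0.20 to 0.014, Kmt2b from -0.065 to 0.067, Setd1b from -0.030 to 0.18 and Setd2 from -0.035 to 0.11.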
